A study of Mus musculus with 8 samples.

Results

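The genes described here are 9 granzymes (Gzma, Gzmb, Gzmc, Gzmd, Gzme, Gzmf, Gzmg, Gzmk and Gzmm) and perforin (Prf1), 10 of the 45232 genes in the deposited table, chosen by name. All 10 had reads in every library and all 10 passed the filter on low counts, which left 11862 genes to test. The libraries come from mouse OT-I CD8 T cells, whose transgenic receptor recognises the ovalbumin peptide SIINFEKL. Cells were activated with that peptide and then grown with IL-2 for 5 days in one of 2 media. The first, RPMI+pEtn, was RPMI with 10% fetal bovine serum and 470 µM o-phosphoethanolamine (pEtn), an intermediate in the synthesis of the membrane lipid phosphatidylethanolamine. The second, RPMI, was the same medium without pEtn. Each medium has 4 numbered libraries, and every group shares the OT-I receptor, the peptide, the IL-2 and the serum.

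Killer T cells carry perforin and granzymes in secretory granules and release them at the contact with a target cell. Perforin forms pores that let the granzymes, which are serine proteases, into that cell. Gzma and Gzmk are tryptase-like and cut after basic residues, Gzmb cuts after aspartate and activates the caspase pathway of cell death, and Gzmm cuts after methionine or leucine. Gzmc, Gzmd, Gzme, Gzmf and Gzmg are granzymes of rodents that lie beside Gzmb on chromosome 14 and are known in mouse T cells kept in culture with IL-2.

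Total counts ran from 29223765 to 35504571 in the RPMI+pEtn libraries and from 31280997 to 34474420 in the RPMI libraries. Markers of CD8 T cells summed to 2490 to 2942 CPM (counts scaled to the library total, after TMM) in RPMI+pEtn and 2431 to 2838 CPM in RPMI, and 0 of the 6 were called by edgeR (1, higher with pEtn, at an unadjusted p under 0.05 and 0 by DESeq2). With the replicate number as a block, Cd8b1 was called higher at a log2 fold change of 0.47 (adjusted p = 0.00447, against 0.104 without it). Markers of mast cells and basophils, B cells and myeloid cells summed to at most 3.67 CPM in any RPMI+pEtn library and 2.79 CPM in any RPMI library, for each of these 3 lists. Markers of CD4 and regulatory T cells summed to 52.7 to 69.1 CPM in RPMI+pEtn and 26.6 to 55.1 CPM in RPMI, and Cd4 averaged 0.124 CPM in RPMI+pEtn and 0.317 CPM in RPMI. Zbtb7b of this list rose (log2 fold change 0.68, adjusted p = 0.0262), a call lost in 5 of the 8 fits that left out 1 library (highest adjusted p 0.0792, without RPMI replicate 3). Markers of gamma delta T cells summed to 153 to 179 CPM in RPMI+pEtn and 102 to 149 CPM in RPMI. Trdc made up most of these sums, averaging 159 CPM in RPMI+pEtn and 123 CPM in RPMI. Sox13, Tcrg-V6 and Il23r of the same list averaged at most 0.103 CPM in either medium. Of this list edgeR called 0 of the 3 tested (all 3 had an unadjusted p under 0.05, 2 of them higher and 1 lower, and DESeq2 called 1 higher). With the block all 3 of these were called, Trdc and Trgv2 higher (adjusted p = 0.0295 and 0.000908) and Cd163l1 lower (adjusted p = 0.0107). The part of these markers in the granzyme results was not tested. In each medium, replicates 3 and 4 resembled each other more than any other pair of its libraries did, and same-numbered libraries of the media deviated together. The labels do not call the libraries separate cultures or animals, so the p-values measure the spread between these libraries, which may be technical. In bulk RNA, fewer cells that express a gene and less RNA of it per cell cannot be told apart.

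With pEtn the cells held 2.93-fold more Gzma and 3.98-fold more Gzmk RNA, and 5.26-fold less Gzmc and 6.19-fold less Gzmf RNA. Of the 10 genes, 2 rose (Gzma and Gzmk) and 2 fell (Gzmc and Gzmf) by edgeR's quasi-likelihood test with Benjamini-Hochberg adjustment over all genes. In the table these 4 are ENSMUSG00000023132 (Gzma), ENSMUSG00000042385 (Gzmk), ENSMUSG00000079186 (Gzmc) and ENSMUSG00000015441 (Gzmf). The other 6, which include Gzmb and Prf1, did not pass it. Of all genes tested, 12.8% were called, 5.22% higher and 7.56% lower with pEtn. The media did not overlap in 4 of the 10 genes, the same 4, against 20.4% of all genes tested. The median log2 fold change was -0.23 over the 10 genes and 0.02 over all genes.

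These counts changed with the libraries that entered. With the replicate number as a block, 32.3% of genes tested were called, and again Gzma and Gzmk rose and Gzmc and Gzmf fell. Without RPMI+pEtn replicate 2, Gzma and Gzmk were called higher (4.17% of genes tested were) and 4 genes, Gzmc, Gzmd, Gzme and Gzmf, lower (6.83% of genes tested). With replicates 1 and 2 only, 2 of the 10 genes, Gzma and Gzmk, were called, both higher, where 0.264% of genes were called in either direction and 0.0825% higher. With replicates 3 and 4 only, the same 2 were called higher and 7 genes lower, where 48.1% of genes were called in either direction, 23.4% higher and 24.7% lower.

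**Figure D1:**
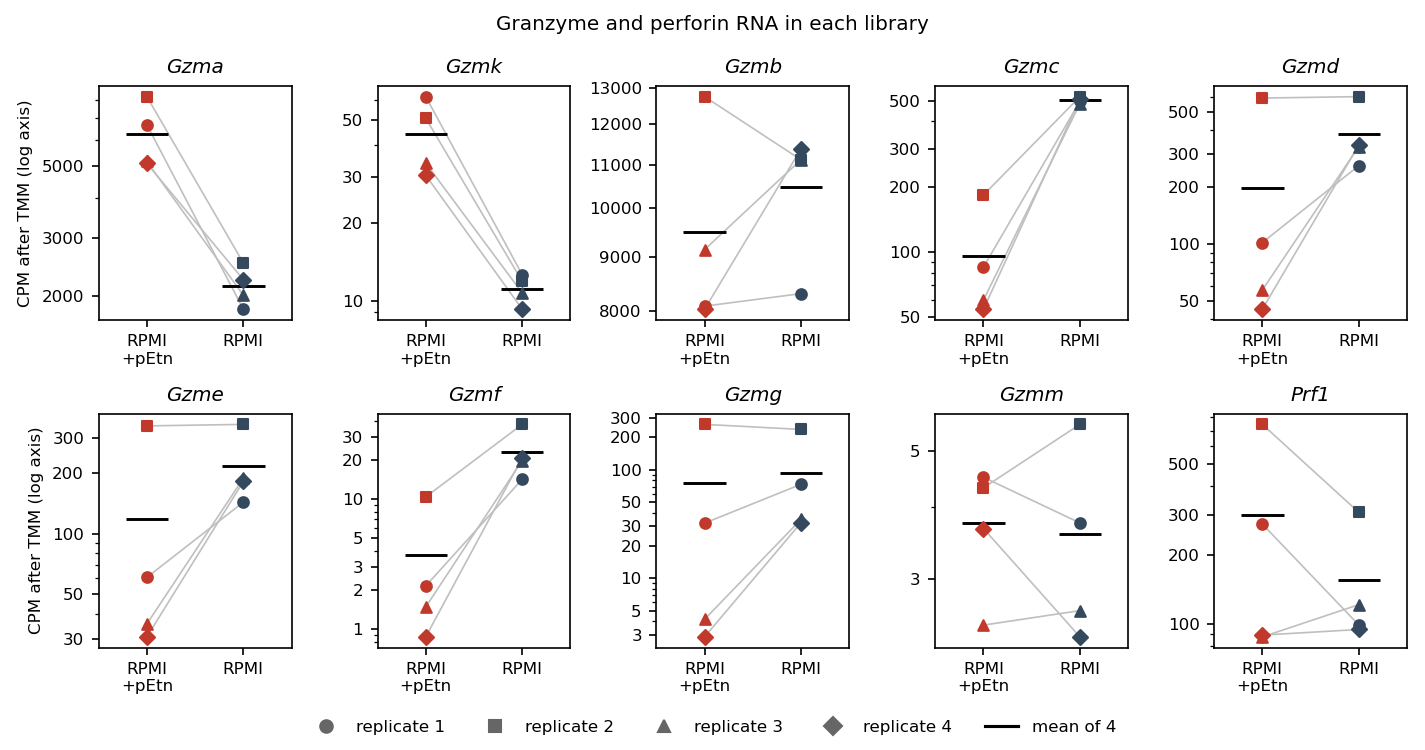
CPM after TMM scaling, on log axes that differ between panels, of each gene in the 4 RPMI+pEtn libraries (left in each panel) and the 4 RPMI libraries (right). Grey lines join libraries of the same number and black bars are means. Gzma and Gzmk are higher in every RPMI+pEtn library, Gzmc and Gzmf are lower in every one, and the squares of replicate 2 stand at the top in most panels.

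The tryptases came first by the size of the rise. Gzma had 6697, 8168, 5165 and 5092 CPM in RPMI+pEtn libraries 1 to 4, against 1817, 2520, 2004 and 2240 CPM in RPMI libraries 1 to 4. The lowest RPMI+pEtn library stood above the highest RPMI library. Gzma averaged 6280.3 ± 1460 CPM in RPMI+pEtn and 2145 ± 304 CPM in RPMI (SD, n = 4 each), and it rose 2.93-fold, a log2 fold change of 1.55 (SE 0.17, adjusted p = 0.00105). Gzmk, the second tryptase, had 61.6, 50.9, 34.1 and 30.6 CPM in RPMI+pEtn libraries and 12.6, 11.9, 10.7 and 9.27 CPM in RPMI libraries. Every RPMI+pEtn library was above every RPMI library here too, and replicates 1 and 2 were higher than replicates 3 and 4 in RPMI+pEtn. Gzmk rose 3.98-fold, a log2 fold change of 1.99 (SE 0.23, adjusted p = 0.00128). Between libraries of the same number the log2 difference lay between 1.18 and 1.88 for Gzma and between 1.66 and 2.28 for Gzmk, and replicates 1 and 2 showed the larger differences for each gene. Neither gene lost its call in any of the 8 fits that left out 1 library, where the highest adjusted p was 0.00561 for Gzma and 0.00643 for Gzmk.

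Gzma and Gzmk are neighbours on mouse chromosome 13, and genes on each side of the pair rose as well. In the order of the GENCODE M21 annotation the protein-coding genes there run Dhx29, Ccno, Mcidas, Cdc20b, Gpx8, Gzma, Gzmk, Esm1, BC067074, Snx18, Hspb3 and Arl15. Of the 10 neighbours, 7 could be tested and 4 of these rose (Cdc20b, Gpx8, Esm1 and Arl15), against 5.22% of all genes tested. The number that fell was 0 (0 also at an unadjusted p under 0.05 and 0 by DESeq2), against 7.56% of all genes tested. With replicates 3 and 4 summed, Gpx8 and Esm1 kept their calls, and Cdc20b and Arl15 lost theirs (adjusted p = 0.0807 and 0.0870). Esm1, a secreted proteoglycan, had 67.0, 44.4, 54.1 and 53.2 CPM in RPMI+pEtn libraries and 11, 8.77, 14 and 12.9 CPM in RPMI libraries. The media stood well apart, and the log2 fold change was 2.23 (SE 0.18, adjusted p = 0.000261). Gpx8, a peroxidase of the endoplasmic reticulum, had 9.99, 14.5, 4.53 and 5.36 CPM in RPMI+pEtn libraries and 2.13, 2.52, 1.66 and 1.92 CPM in RPMI libraries. The lowest RPMI+pEtn library was again above the highest RPMI library, at a log2 fold change of 2.06 (SE 0.37, adjusted p = 0.00731).

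Cdc20b, a relative of the mitotic gene Cdc20, had only 2.70, 2.31, 1.04 and 1.07 CPM in RPMI+pEtn libraries and 0.570, 0.704, 0.188 and 0.390 CPM in RPMI libraries. The media did not overlap, and Cdc20b rose at a log2 fold change of 1.93 (SE 0.47, adjusted p = 0.0277). This call was lost in 4 of the 8 fits that left out 1 library, with the highest adjusted p of 0.0767 without RPMI replicate 4. Arl15, a small GTPase at the far end of the stretch, averaged 19.8 ± 0.677 CPM in RPMI+pEtn and 13.5 ± 1.22 CPM in RPMI (SD, n = 4 each), a log2 fold change of 0.55 (SE 0.11, adjusted p = 0.0107). The tested genes that did not pass were Dhx29 at a log2 fold change of 0.01 (adjusted p = 0.969), Ccno at 0.34 (adjusted p = 0.540) and Snx18 at 0.03 (adjusted p = 0.929). In that annotation Gpx8 lies within the span of Cdc20b and Esm1 within the span of Gzmk, each on the opposite strand and with 0 exon bases in common. Whether the counting used strand or introns is not given in the sources used here, and what intron reads add to these counts was not tested.

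**Figure D2:**
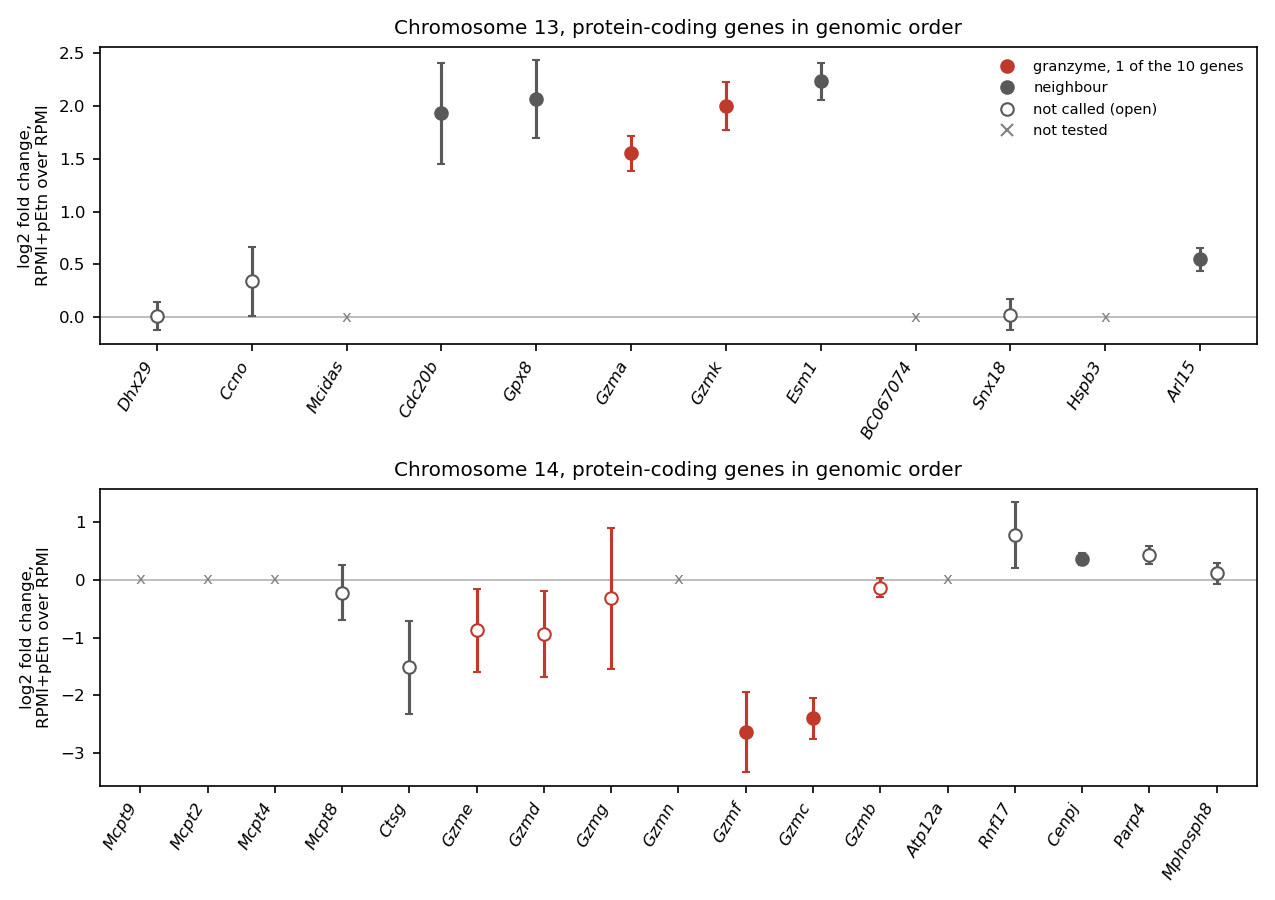
log2 fold change of RPMI+pEtn over RPMI from edgeR for protein-coding genes in genomic order (not to distance) around Gzma and Gzmk on chromosome 13 and around the chromosome 14 granzymes. Bars are SE, red marks the granzymes, filled symbols passed the test and crosses were not tested. The rise on chromosome 13 runs from Cdc20b to Esm1, with Dhx29 at 0.01 and Snx18 at 0.03 outside it and Arl15 at 0.55 further along.

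Some of the chromosome 14 granzymes are close copies of one another, which bears on their counts. The first 90 bases of the reading frames of Gzmb and the 5 rodent granzymes are shown, 5′ to 3′ as in GENCODE M21 transcripts, because they show how little separates some of them. Capitals mark the bases that differ from Gzmd at the same position.
Gzmb: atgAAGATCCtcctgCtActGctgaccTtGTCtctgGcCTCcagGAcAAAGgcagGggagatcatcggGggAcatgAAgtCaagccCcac
Gzmc: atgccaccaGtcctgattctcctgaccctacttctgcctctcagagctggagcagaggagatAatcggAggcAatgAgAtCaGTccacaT
Gzmd: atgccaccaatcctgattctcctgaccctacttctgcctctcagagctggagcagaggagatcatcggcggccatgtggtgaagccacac
Gzme: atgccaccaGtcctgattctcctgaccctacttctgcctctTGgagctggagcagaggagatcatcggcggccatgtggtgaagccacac
Gzmf: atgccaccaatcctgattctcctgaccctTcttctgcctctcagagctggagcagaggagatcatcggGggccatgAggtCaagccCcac
Gzmg: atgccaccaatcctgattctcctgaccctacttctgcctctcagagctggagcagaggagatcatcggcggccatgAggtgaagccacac
Over these 90 bases Gzmg differed from Gzmd at 1 base, Gzme at 3, Gzmf at 5, Gzmc at 10 and Gzmb at 31. Over the aligned transcripts Gzmd and Gzme were 94.8% identical, Gzme and Gzmg 90.3% and Gzmd and Gzmg 90.1%. Gzmf was 86.4% to 88.7% identical to these 3. Gzmc was less close, at 73.7% to 75.1% identity to Gzmd, Gzme, Gzmf and Gzmg. Gzmb was 71.2% to 76.7% identical to the 5 rodent granzymes. Of the 50-base windows of each transcript, 21.9% of those of Gzmd, 20.6% of Gzme, 19.8% of Gzmg, 7.36% of Gzmf and 4.14% of Gzmc occurred also in another of the transcripts compared, and 0% of those of Gzmb. Reads from such windows cannot be told apart, and how the authors' counting treated them is not given in the sources used here. The levels of Gzmd, Gzme and Gzmg are therefore uncertain, and those of Gzmf and Gzmc are too, with fewer shared windows. Gzmf had far fewer reads than Gzmd, at means of 3.74 CPM against 199 CPM in RPMI+pEtn. In RPMI these means were 23.2 CPM and 381 CPM. What reads of the related genes add to the Gzmf counts was not tested. At 100 bases the shared windows were 0.231% for Gzmd, 0.247% for Gzmg and 0% for the others.

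Within this cluster Gzmc and Gzmf fell. Gzmc had 84.9, 183, 59.8 and 54.3 CPM in RPMI+pEtn libraries and 496, 521, 484 and 508 CPM in RPMI libraries. The RPMI libraries lay within a narrow band, and even the highest RPMI+pEtn library, replicate 2, was far below it. Gzmc averaged 95.5 ± 59.8 CPM in RPMI+pEtn and 502 ± 16.0 CPM in RPMI (SD, n = 4 each), and it was 5.26-fold lower with pEtn, a log2 fold change of -2.39 (SE 0.35, adjusted p = 0.00296). The call held in all 8 fits that left out 1 library, with an adjusted p of at most 0.0134. Gzmf had few reads, with 2.16, 10.4, 1.49 and 0.875 CPM in RPMI+pEtn libraries and 14.3, 37.7, 19.9 and 20.8 CPM in RPMI libraries. Replicate 2 was the highest library in each medium, and the media did not overlap. Gzmf was 6.19-fold lower with pEtn (log2 fold change -2.63, SE 0.69, adjusted p = 0.0359). Its call was lost without RPMI+pEtn replicates 1, 3 or 4 (adjusted p = 0.0946, 0.0840 and 0.0682) and without RPMI replicates 2, 3 or 4 (adjusted p = 0.0735, 0.0712 and 0.0677). Summing replicates 3 and 4 ended it too (adjusted p = 0.143).

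Gzmd, Gzme and Gzmg did not pass the test, and in each of them replicate 2 stood far above the other RPMI+pEtn libraries. Gzmd had 102, 591, 57.1 and 45.2 CPM in RPMI+pEtn libraries and 260, 602, 328 and 333 CPM in RPMI libraries. Replicate 2 reached about the same level in the 2 media, while the other 3 RPMI+pEtn libraries lay below every RPMI library. The log2 fold change was -0.94 (SE 0.74, adjusted p = 0.453), and without RPMI+pEtn replicate 2 it was -2.5 (adjusted p = 0.00492). Without RPMI replicate 2 it was -0.63 (adjusted p = 0.653), and 7 of the 8 fits that left out 1 library did not call Gzmd. Gzme had 60.6, 344, 35.5 and 30.6 CPM in RPMI+pEtn libraries and 143, 350.0, 189 and 182 CPM in RPMI libraries. The order of the libraries was nearly that of Gzmd, with replicate 2 again level between the media. The log2 fold change of Gzme was -0.88 (SE 0.72, adjusted p = 0.470), and without RPMI+pEtn replicate 2 it was -2.36 (adjusted p = 0.00541). Without RPMI replicate 2 it was -0.54 (adjusted p = 0.693), and Gzme too was not called in 7 of those 8 fits. Gzmg varied most, with 32.2, 262, 4.18 and 2.88 CPM in RPMI+pEtn libraries and 73.4, 235, 34.9 and 32.5 CPM in RPMI libraries. Replicates 1 and 2 were higher than replicates 3 and 4 in each medium, and the media overlapped. Its log2 fold change was -0.32 (SE 1.22, adjusted p = 0.895), and without RPMI+pEtn replicate 2 it was -2.86 (adjusted p = 0.108).

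Several of these genes also varied strongly between libraries of 1 medium. The SD of log2 CPM within a medium was 2.31 for Gzmg, 1.24 for Gzmd, 1.20 for Gzme, 1.19 for Prf1 and 1.14 for Gzmf, against a median of 0.228 over all genes tested. At least 98.5% of genes tested had a smaller SD than each of these 5. In contrast, it was 0.272 for Gzma and 0.268 for Gzmb, which 60.5% and 59.6% of genes fell below. Replicate 2 was the highest library for 8 of the 10 genes in RPMI+pEtn, for 8 of 10 in RPMI and for the same 7 in both media. Between same-numbered libraries Gzmd differed by -1.35, -0.03, -2.52 and -2.88 on the log2 scale for numbers 1 to 4. Gzmc and Gzmf showed the same order of numbers, with the smallest difference in number 2 (-1.51 for Gzmc, -1.85 for Gzmf) and the largest in number 4 (-3.22 for Gzmc, -4.48 for Gzmf).

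Some other transcripts moved with the numbers. Klrb1c, a receptor found on natural killer cells, had 16.8, 33.7, 5.94 and 7.25 CPM in RPMI+pEtn libraries and 21.1, 31.5, 16.1 and 19.1 CPM in RPMI libraries, so it too was highest in replicate 2 of each medium. It made up nearly all of the 6 natural killer markers, which summed to 6.26 to 34.2 CPM in RPMI+pEtn and 16.3 to 31.6 CPM in RPMI. The natural killer markers Klra4 and Klra8 were at 0 in every library. The nuclear RNA Malat1 differed by -0.12 and -0.21 on the log2 scale in numbers 1 and 2, but by 1.39 and 1.35 in numbers 3 and 4. Neat1, also nuclear, differed by -0.01, 0.49, 1.06 and 1.21 in numbers 1 to 4. It had 30.3, 35.9, 9.57 and 8.97 CPM in RPMI+pEtn libraries and 30.5, 25.5, 4.55 and 3.84 CPM in RPMI libraries. By edgeR Neat1 was called only with the replicate number as a block (adjusted p = 0.0427, against 0.763 without it). Malat1 was called in neither fit (adjusted p = 0.270 and 0.601). Transcripts of the mitochondrial genome took 2.62% to 2.91% of counts in RPMI+pEtn and 1.46% to 2.47% in RPMI. In this share the media differed without overlap. The part of these in the granzyme differences was not tested.

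**Figure D3:**
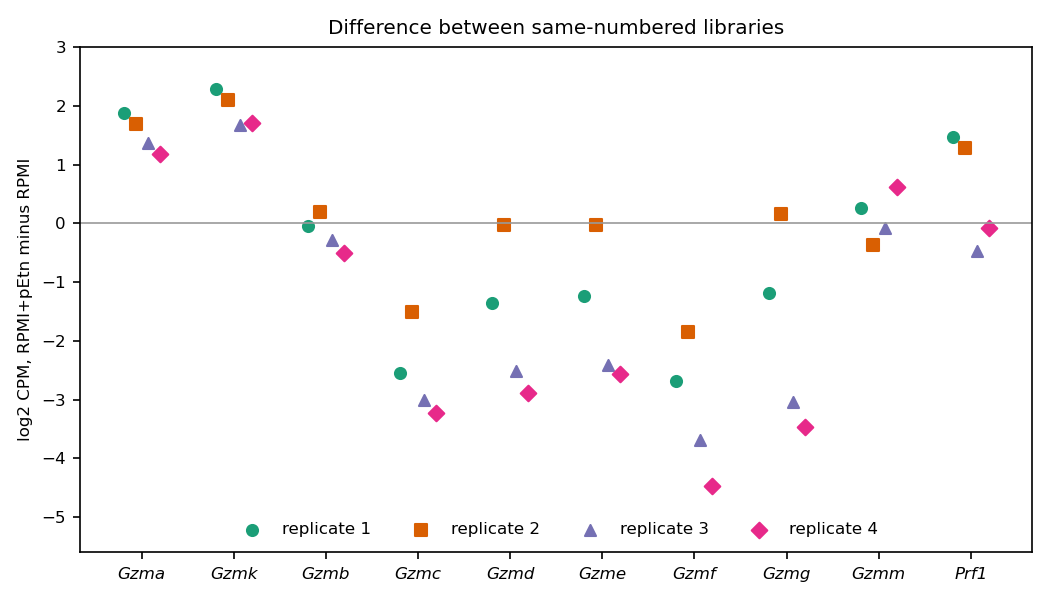
Difference in log2 CPM, RPMI+pEtn minus RPMI, between libraries of the same number, 4 points a gene. All 4 points lie above 0 for Gzma and Gzmk and below 0 for Gzmc, Gzmd, Gzme and Gzmf. In number 2 Gzmd is at -0.03 and Gzme at -0.02. The square of number 2 is the highest of the 4 for Gzmb to Gzmg.

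Gzmb, the granzyme with the highest TPM in RPMI, did not pass the test. It had 8089, 12746, 9146 and 8037 CPM in RPMI+pEtn libraries and 8312, 11112, 11118 and 11382 CPM in RPMI libraries. The media overlapped, and the differences between same-numbered libraries had no common sign. The log2 fold change was -0.14 (SE 0.16, adjusted p = 0.619), and 3 of the 4 numbers were lower with pEtn. With replicates 3 and 4 only it was -0.40 (adjusted p = 0.000325), where 24.7% of genes tested were called lower. With replicates 1 and 2 only it was 0.088 (adjusted p = 0.914). Gzmm, on chromosome 10, had few reads, with 4.51, 4.32, 2.49 and 3.67 CPM in RPMI+pEtn libraries and 3.75, 5.57, 2.64 and 2.37 CPM in RPMI libraries. The ranges lay over each other, and the log2 fold change was 0.06 (SE 0.31, adjusted p = 0.920).

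Prf1, also on chromosome 10, had 273, 745, 87.5 and 89.1 CPM in RPMI+pEtn libraries and 98.7, 307, 121 and 94.3 CPM in RPMI libraries. It was higher with pEtn in numbers 1 and 2 and lower in numbers 3 and 4, and replicate 2 was the highest library of each medium. The log2 fold change was 0.94 (SE 0.68, adjusted p = 0.407). It was -0.06 (adjusted p = 0.955) without RPMI+pEtn replicate 2, and -0.30 (adjusted p = 0.0334) with replicates 3 and 4 only. Adamts14, an extracellular protease gene next to Prf1, had 9.55, 24.1, 2.0 and 1.97 CPM in RPMI+pEtn libraries and 3.45, 9.65, 2.29 and 1.56 CPM in RPMI libraries. It was high in the same libraries as Prf1, and its log2 fold change of 1.15 did not pass the test (adjusted p = 0.407). Pald1, on the other side of Prf1, was at -1.02 on the log2 scale (adjusted p = 0.380), and at -0.85 with the replicate number as a block (adjusted p = 0.0389). Of the 12 genes tested beside Prf1 and Gzmm on chromosome 10, edgeR called 0 (0 at an unadjusted p under 0.05 and 0 by DESeq2). Of all genes tested, edgeR called 12.8%.

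**Figure D4:**
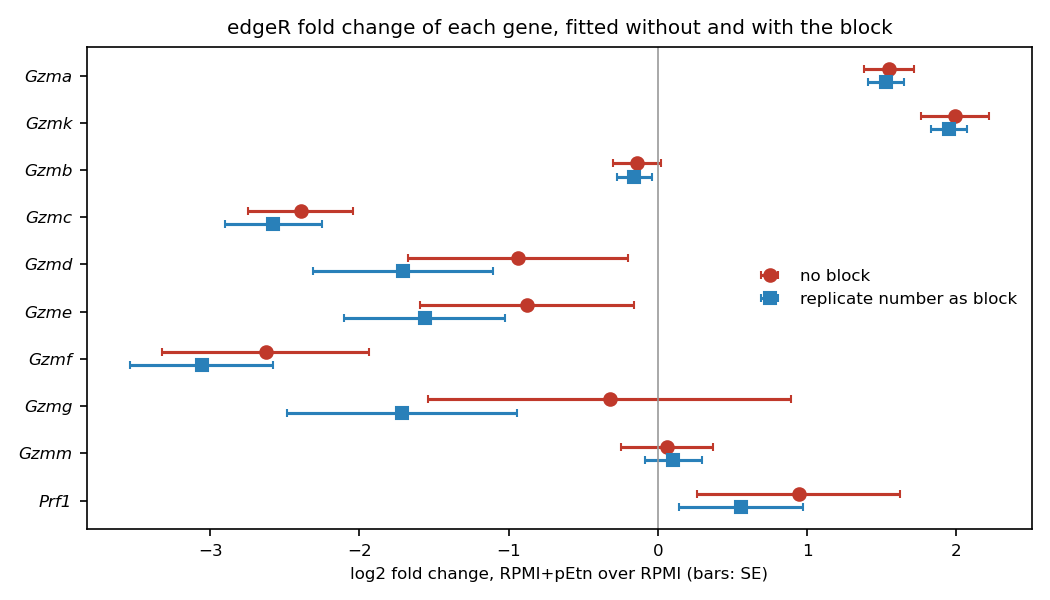
log2 fold change of RPMI+pEtn over RPMI from edgeR for each gene, without (circles) and with (squares) the replicate number as a block, with bars for SE. Gzma at 1.55 and Gzmk at 1.99 lie above 0 and Gzmc at -2.39 and Gzmf at -2.63 below it, and Gzmg has the widest bar, at an SE of 1.22.

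Levels were set against each other as TPM of the deposited table, a unit that takes account of transcript length. In RPMI+pEtn, Gzma averaged 18758 ± 4285 TPM and Gzmb 17552 ± 3895 TPM, and in RPMI, Gzma averaged 6367 ± 854 TPM and Gzmb 19243 ± 2386 TPM (SD, n = 4 each). Gzma exceeded Gzmb in 3 of the 4 RPMI+pEtn libraries and in 0 of the 4 RPMI libraries. In RPMI+pEtn the 2 genes were followed by Gzmd (537 ± 705 TPM), Prf1 (379.8 ± 390.3), Gzme (332 ± 424), Gzmc (267 ± 165) and Gzmg (215 ± 356), and then by Gzmk (83.7 ± 28.2), Gzmf (10.7 ± 12.8) and Gzmm (6.69 ± 1.67). This is an order of means. Of these neighbours in the order, only Gzmb and Gzmd, and Gzmk and Gzmf, had ranges that did not overlap. Gzme exceeded Gzmc, Gzmg exceeded Gzmk and Gzmf exceeded Gzmm in only 1 of the 4 RPMI+pEtn libraries, replicate 2. The other steps with overlapping ranges held in 3 of the 4. In RPMI the order was Gzmb, Gzma, Gzmc (1402 ± 48.1 TPM), Gzmd (1029 ± 407), Gzme (609.7 ± 258), Gzmg (270.3 ± 275), Prf1 (197 ± 129), Gzmf (66.5 ± 29), Gzmk (20.9 ± 3.09) and Gzmm (6.36 ± 2.61). There the ranges overlapped for each step from Gzmc down to Prf1, and not for the other steps. Within that stretch Gzmd exceeded Gzme, and Gzme exceeded Gzmg, in all 4 RPMI libraries. Gzmc exceeded Gzmd in 3 of the 4 and Gzmg exceeded Prf1 in 2. Of the rodent granzymes, Gzmd had the highest mean in RPMI+pEtn and Gzmc in RPMI. The ratio of Gzmc to Gzmd TPM was 0.862, 0.319, 1.08 and 1.24 in RPMI+pEtn libraries and 1.97, 0.894, 1.52 and 1.57 in RPMI libraries, so the ranges overlapped.

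The 10 genes together made up 3.81% ± 0.974 of all TPM in RPMI+pEtn and 2.92% ± 0.376 in RPMI (SD, n = 4 each), with the highest RPMI library above the 2 lowest RPMI+pEtn libraries. Gzma was 49.4% ± 4.14 of it in RPMI+pEtn and 21.8% ± 1.21 in RPMI, and Gzmb 46.4% ± 4.40 in RPMI+pEtn and 66.0% ± 3.49 in RPMI (SD, n = 4 each). Gzmc to Gzmg together were 2.17%, 7.34%, 1.34% and 1.22% in RPMI+pEtn libraries and 11.6%, 14.6%, 9.92% and 9.72% in RPMI libraries. The highest RPMI+pEtn library, replicate 2, was below the lowest RPMI library. The ratio of Gzma to Gzmb TPM was 1.34, 1.03, 0.912 and 1.02 in RPMI+pEtn libraries and 0.353, 0.366, 0.291 and 0.318 in RPMI libraries. These shares and ratios are given as descriptions with no test.

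**Figure D5:**
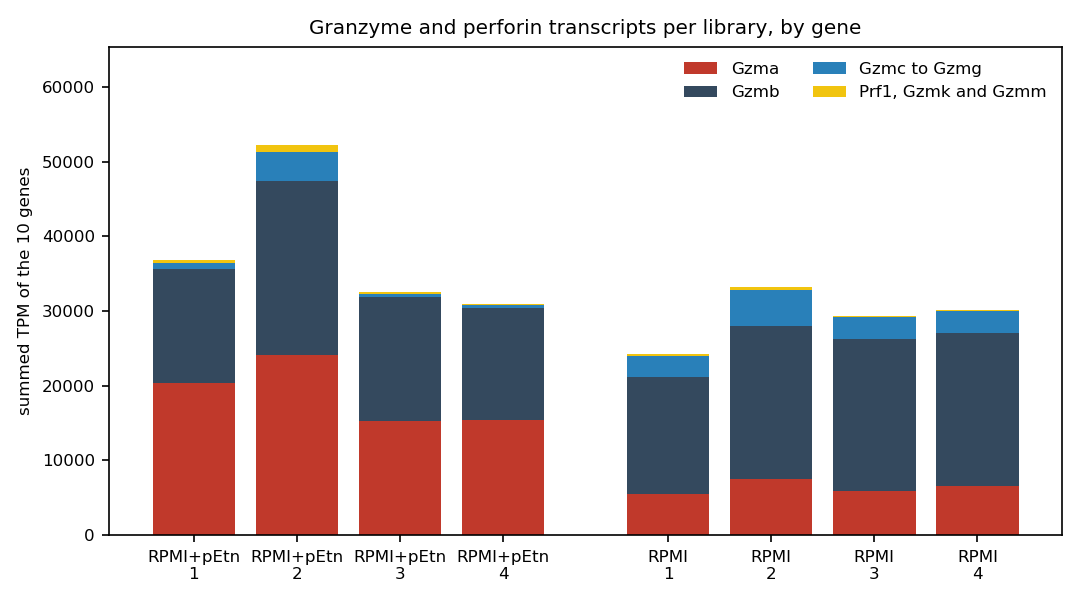
Summed TPM of the 10 genes in each library, stacked by gene, with the 4 RPMI+pEtn libraries on the left and the 4 RPMI libraries on the right. The Gzma block is taller in every RPMI+pEtn library than in any RPMI library, and the Gzmc to Gzmg block is thicker in RPMI, at 9.72% to 14.6% of the sum, against at most 7.34% in RPMI+pEtn.

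The promoters of the granzymes that passed the test, and of Gzmb and Prf1, are shown because transcription factors of killer T cells are known to bind near these genes. Each runs 5′ to 3′ on the strand of the gene from 250 bases before to 50 bases after the RefSeq start (GRCm38.p6), and capitals mark matches to 4 motifs. The motifs, searched on both strands, were TGTGGT for RUNX factors, TGANTCA for AP-1, TTCNNNGAA for STAT factors and GGTGTGA for T-box factors. The windows were chr13:113100932-113101231, minus strand, for Gzma, chr13:113180916-113181215, minus strand, for Gzmk, chr14:56262285-56262584, minus strand, for Gzmb, chr14:56234608-56234907, minus strand, for Gzmc, chr14:56211358-56211657, minus strand, for Gzmf, and chr10:61297586-61297885, plus strand, for Prf1.
Gzma: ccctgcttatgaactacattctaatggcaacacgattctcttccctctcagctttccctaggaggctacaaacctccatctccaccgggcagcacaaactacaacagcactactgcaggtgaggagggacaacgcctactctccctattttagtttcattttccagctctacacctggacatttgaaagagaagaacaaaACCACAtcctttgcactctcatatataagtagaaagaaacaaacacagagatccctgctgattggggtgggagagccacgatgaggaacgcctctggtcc
Gzmk: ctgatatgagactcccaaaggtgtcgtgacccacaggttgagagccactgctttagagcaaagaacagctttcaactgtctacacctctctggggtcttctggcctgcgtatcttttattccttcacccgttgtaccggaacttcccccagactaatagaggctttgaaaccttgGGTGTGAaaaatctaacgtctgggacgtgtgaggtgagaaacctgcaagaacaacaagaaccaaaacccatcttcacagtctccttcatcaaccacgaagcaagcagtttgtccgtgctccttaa
Gzmb: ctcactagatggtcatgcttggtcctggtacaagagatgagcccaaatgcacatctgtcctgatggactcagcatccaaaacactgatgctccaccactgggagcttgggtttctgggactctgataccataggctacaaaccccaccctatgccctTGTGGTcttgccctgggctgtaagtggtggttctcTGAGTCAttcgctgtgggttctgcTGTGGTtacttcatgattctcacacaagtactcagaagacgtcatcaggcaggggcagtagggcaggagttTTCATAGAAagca
Gzmc: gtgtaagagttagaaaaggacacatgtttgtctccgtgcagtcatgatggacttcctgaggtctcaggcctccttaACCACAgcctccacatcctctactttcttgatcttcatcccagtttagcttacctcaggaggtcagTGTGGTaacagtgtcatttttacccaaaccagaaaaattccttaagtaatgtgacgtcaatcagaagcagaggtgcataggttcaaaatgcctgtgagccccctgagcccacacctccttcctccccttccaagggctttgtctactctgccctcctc
Gzmf: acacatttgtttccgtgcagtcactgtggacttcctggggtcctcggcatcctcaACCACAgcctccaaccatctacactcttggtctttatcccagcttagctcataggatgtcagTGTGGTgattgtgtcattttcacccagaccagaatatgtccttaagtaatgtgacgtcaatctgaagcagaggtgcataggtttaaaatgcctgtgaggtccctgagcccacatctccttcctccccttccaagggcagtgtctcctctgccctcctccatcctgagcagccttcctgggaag
Prf1: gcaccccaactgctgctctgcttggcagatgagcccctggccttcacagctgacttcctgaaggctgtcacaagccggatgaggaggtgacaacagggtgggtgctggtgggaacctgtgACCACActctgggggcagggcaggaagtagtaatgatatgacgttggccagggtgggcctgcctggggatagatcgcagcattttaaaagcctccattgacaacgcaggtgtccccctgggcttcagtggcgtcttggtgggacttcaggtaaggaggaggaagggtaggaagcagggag
The 10 genes have 11 windows, since Gzmm has 2, and a gene is counted where any of its windows holds the letters, whereas the shares are per window. The RUNX letters were found for 9 of the 10 genes, all but Gzmk, and in 16.8% of the 32851 mouse promoter windows of that length. Gzmb, Gzmc, Gzmd, Gzme, Gzmf and Gzmg each held 2 matches, and these genes are related copies, so their promoters are not independent examples. The AP-1 letters were found in Gzmb alone (7.81% of all windows), the STAT letters in Gzmb and Gzmm (8.30%) and the T-box letters in Gzmk and Gzmm (3.98%), where the T-box match of Gzmm is not in the same window as its RUNX and STAT matches. The 2 genes that rose, Gzma and Gzmk, shared none of these motifs, and the promoters of Gzmc and Gzmf held the same motif in the same number. A match is a description of letters and not a bound site.

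Of 24 regulators of granzyme and perforin transcription, all tested, 1 rose and 1 fell, against 5.22% and 7.56% of all genes. Their median log2 fold change was 0.12, against 0.02 over all genes. Runx1, a factor of the RUNX family, averaged 13.4 ± 1.86 CPM in RPMI+pEtn and 3.54 ± 0.910 CPM in RPMI (SD, n = 4 each), with no overlap, and rose at a log2 fold change of 1.93 (SE 0.21, adjusted p = 0.00105). Zfp683, the transcription factor Hobit of tissue-resident lymphocytes, averaged 2.19 ± 0.568 CPM in RPMI+pEtn and 21.1 ± 13.4 CPM in RPMI (SD, n = 4 each), again without overlap. It fell at a log2 fold change of -3.27 (SE 0.43, adjusted p = 0.00209). With the replicate number as a block, 7 regulators rose and 3 fell, against 15.8% higher and 16.5% lower over all genes. Chosen after their values were seen, the T-box genes Eomes (log2 fold change -0.70, adjusted p = 0.127, with the block 0.00167) and Tbx21 (0.51, adjusted p = 0.313, with the block 0.00652) and the repressor Id2 (0.59, adjusted p = 0.178, with the block 0.00343) were among those called only with the block.

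Of 26 genes of granule maturation and release, 23 were tested, 2 rose and 2 fell, against 5.22% higher and 7.56% lower over all genes, at a median log2 fold change of 0.01. With the block 4 rose and 4 fell, against 15.8% higher and 16.5% lower over all genes. Gnptab, which makes the mannose 6-phosphate tag of lysosomal enzymes, averaged 128 ± 8.5 CPM in RPMI+pEtn and 216 ± 14.6 CPM in RPMI (SD, n = 4 each), a log2 fold change of -0.75 (SE 0.09, adjusted p = 0.00143). Lamp1, a membrane protein of granules and lysosomes, averaged 198 ± 19.4 CPM in RPMI+pEtn and 283 ± 9.09 CPM in RPMI (SD, n = 4 each), a log2 fold change of -0.52 (SE 0.09, adjusted p = 0.00685). Lyst, a regulator of lysosome trafficking, was at 0.76 (SE 0.17, adjusted p = 0.0187) and the fusion protein gene Stx11 at 0.56 (SE 0.15, adjusted p = 0.0359). Lyst lost its call without RPMI replicates 3 or 4 (adjusted p = 0.0569 and 0.0576), and Stx11 in 5 of the 8 fits that left out 1 library (highest adjusted p 0.0989, without RPMI+pEtn replicate 4).

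Of 11 genes listed as granzyme inhibitors and other killing ligands, 9 were tested. Those not tested were Serpinb9b and Gzmn, which is itself a granzyme. Of the 9, 0 rose by edgeR (1 at an unadjusted p under 0.05 and 1 by DESeq2) and 3 fell, against 5.22% higher and 7.56% lower over all genes. Their median log2 fold change was -0.25. With the block 2 rose and 3 fell, against 15.8% and 16.5% of all genes. Chosen after their values were seen, the cytokine gene Ifng (log2 fold change 1.36, adjusted p = 0.0711, with the block 0.0239) and the serpin gene Serpinb6a (0.33, adjusted p = 0.313, with the block 0.0225) rose with the block alone, and the cytokine gene Tnf (-0.89, adjusted p = 0.159, with the block 0.0152) fell with the block alone. The serpin genes Serpina3g and Serpinb6b, which encode protease inhibitors, were at -0.92 (adjusted p = 0.0128) and -0.72 (adjusted p = 0.0250). Serpinb9, another serpin gene of the list, did not pass the test, at -0.25 (adjusted p = 0.571). Serpinb6b lost its call in 4 of the 8 fits that left out 1 library, with the highest adjusted p of 0.0729 without RPMI+pEtn replicate 4. Lta, the cytokine lymphotoxin alpha, was at -1.29 (adjusted p = 0.0151), and its adjusted p was 0.0579 with the block.

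The genes most like each member over the 8 libraries were those with the smallest root mean square difference of mean-centred log2 CPM, among the 9186 genes whose mean reached 5 CPM. For Gzma they were Lzts1, Rap2a and Ston2 (0.196, 0.234 and 0.247) and for Gzmk they were Cass4, Podnl1 and Runx1 (0.178, 0.299 and 0.311). Gzmc was most like Ctnnd2, Etv4 and Etv5 (0.244, 0.271 and 0.393). For Gzmf the closest were Etv4, Slc16a10 and Ctnnd2 (0.661, 0.667 and 0.746), so Ctnnd2 and Etv4 stood in both lists. Gzmd was most like Klhl30, Cdh17 and Tnfrsf11b (0.476, 0.487 and 0.508) and Gzme most like Tnfrsf11b, Klhl30 and Lipg (0.440, 0.453 and 0.494). For Gzmg they were Cdh17, Spp1 and Slc27a6 (0.707, 0.836 and 0.844), and for Prf1 B4galnt2, Adamts14 and Gm8890 (0.282, 0.381 and 0.406). Among the members themselves Gzmd and Gzme were closest, at 0.0938, followed by Gzma and Gzmk at 0.330. Gzmd and Gzme are also the pair with 94.8% identical transcripts, and the part of shared reads in their closeness was not tested. For Gzmb and Gzmm, whose levels varied least between the media, no such genes are given.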

How the data were processed

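RNA of 8 libraries (4 of RPMI+pEtn, 4 of RPMI) was made from sorted cells with a Takara SmartSeq kit using 15 cycles, as the labels' protocols state. The deposited table gives total counts per gene (whole numbers, not normalized by the authors), which entered every main test, and TPM values deposited by the authors, used for levels and for an alternative. The authors' RPKM and CPM columns (16 columns) were not used here. The submitters' processing notes name GRCm39 as genome build. Not given in the sources used here are the aligner, counter, annotation and strand setting.

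Total counts ran from 29223765 to 35504571 and 17625 genes had a count. edgeR 4.0.16 in R 4.3.3 kept 11862 genes with filterByExpr and scaled libraries by TMM. Media were compared by its robust quasi-likelihood test with Benjamini-Hochberg adjustment over all genes tested, and called means an adjusted p under 0.05. SE were derived from the F statistic. CPM are after TMM scaling, with SD over 4 libraries, and log2 CPM used a prior count of 2.

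Members and gene lists were chosen with earlier results of these data known, and no list was tested as a set. Named genes are the members, called genes of the lists, the tested neighbours (up to 5 protein-coding genes on each side) on chromosome 13, those that flank other members or were called, and the 3 genes most like a member. Gene order, transcripts and their identity came from GENCODE M21 (GRCm38), and promoters from RefSeq (GRCm38.p6), where all 10 members matched by symbol. Coordinates are of those promoter windows only.

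Same-numbered libraries had correlated deviations from their medium's mean (0.441 to 0.566, each above 0.1), and were therefore treated as pairs in the fit with the replicate block. Some libraries of different number also passed 0.1. These were RPMI+pEtn 4 with RPMI 3 (0.406), RPMI+pEtn 3 with RPMI 4 (0.382) and RPMI+pEtn 1 with RPMI 2 (0.153). Same-number values were 0.441 for number 3 and 0.451 for number 4, so the pairing of these libraries is uncertain. What a number stands for is not in the labels. A blocked value stands beside a test in the text where it changes the call. Replicates 3 and 4 had a chi-square per gene of 5.04 in RPMI+pEtn and 11.2 in RPMI, against 51.1 to 106.7 for other pairs of one medium. The labels number them apart, so they were kept apart, and they were summed as an alternative. Alternatives were no TMM scaling, DESeq2 1.42.0, other filters, limma 3.58.1 on log2(TPM + 1) and log2(TPM + 0.1), the block, leaving out each library, and subsets of replicates.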

Additional observations from a re-analysis of the deposited data

Results flagged for a closer look

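A library that stood apart from the other 3 of its medium was found in 2 of the 70 groups of 4 examined, and chance alone marks about 1 in 20 such groups. Gzmb in RPMI had 8312 CPM in library 1, against 11112 to 11382 CPM in the other 3, and the gap was 0.923 of the whole range on the log2 scale, past Dixon's critical value for 4 samples. Stx11 in RPMI+pEtn had 30.5 CPM in library 1, against 38.5 to 39.7 CPM in the other 3, a gap of 0.883 of the range. Replicate 2, which was highest for 8 of the 10 genes in each medium, did not pass this mark for any of them.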

How the results depend on the processing

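Gzma and Gzmk kept their direction and their call under each of the 19 alternatives run, and Gzmc under all but replicates 1 and 2 only (adjusted p = 0.121). With the replicate block 3830 genes were called, against 1516 without it, and with the block the counts of called genes were 8 for the granule list (4 without it), 10 for the regulators (2) and 5 for the inhibitors and ligands (3), while the 4 called members were the same and no other member was called. Summing replicates 3 and 4 left 325 called genes of 11992 tested, 3 members and 1 granule gene. It left 0 inhibitors and ligands by edgeR (4 at an unadjusted p under 0.05). The summing ended the calls of Gzmf, Arl15, Cdc20b, Cenpj, Lamp1, Lyst, Stx11, Serpinb6b, Serpina3g, Lta, Zbtb7b and Etv4 (adjusted p from 0.0508 to 0.170). Summing together with the block gave 2329 genes of 11992 tested, 4 members, 5 granule genes, 7 regulators and 5 inhibitors and ligands. Replicates 1 and 2 only gave 32 genes (0.264% of 12122 tested), 2 members and 1 regulator. They gave 0 granule genes (3 at an unadjusted p under 0.05) and 0 inhibitors and ligands (5 at an unadjusted p under 0.05). Replicates 3 and 4 only gave 5675 genes (48.1% of those tested), 9 members, 11 granule genes, 18 regulators and 7 inhibitors and ligands. The cause was not tested. Leaving out each library in turn gave 796 to 1638 genes, of 11970 to 12054 tested, and 3 to 6 members. In these fits 2 to 5 granule genes, 2 to 4 regulators and 2 to 3 inhibitors and ligands were called. Without the filter on low counts the adjusted p of Gzmf was 0.128.

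Changes of sign were as follows on the log2 scale. With replicates 1 and 2 only, Gzmb was at 0.088, Gzmm at -0.092, Dhx29 at -0.12, Snx18 at -0.013 and Malat1 at -0.18. With replicates 3 and 4 only, Prf1 was at -0.30 and Bsg, next to Gzmm, at -0.041. Over the fits without 1 library, Gzmg ran from -2.86 (without RPMI+pEtn replicate 2) to 0.68 (without RPMI replicate 2), Gzmm from -0.090 to 0.35, Prf1 from -0.061 to 1.51, Dhx29 from -0.070 to 0.12, Snx18 from -0.089 to 0.13 and the log2 fold change of Spp1 from -2.46 to 0.51. Dhx29 was also at -0.0012 with a 5 CPM filter, -0.0023 with the replicate block, -0.025 after summing replicates 3 and 4 and -0.038 after summing them in the blocked fit. DESeq2 gave no adjusted p for Gzmd, Gzme and Gzmg. Some named genes had few reads, such as Ctsg, Ccno and Pald1, with 186, 342 and 347 counts over the 8 libraries.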

Other observations

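Other proteases of the chromosome 14 stretch were rare. Gzmn, a further granzyme of that cluster that was not among the 10, had 38 counts over the 8 libraries and was not tested. Ctsg, the cathepsin G gene next to Gzme and known from neutrophils, averaged 0.366 ± 0.485 CPM in RPMI+pEtn and 1.05 ± 0.598 CPM in RPMI (SD, n = 4 each), at a log2 fold change of -1.51 (edgeR adjusted p = 0.250, with the replicate block 0.0180). Mcpt8, a basophil protease gene beside it, was at -0.22 on the log2 scale (adjusted p = 0.806), and the mast cell protease genes Mcpt2, Mcpt4 and Mcpt9 were at 0 in every library. On the other side of Gzmb, Cenpj, a centriole gene, was at 0.36 (adjusted p = 0.0396) and lost that call in 7 of the 8 fits that left out 1 library, with the highest adjusted p of 0.119 without RPMI replicate 3. Rnf17 was at 0.77 (adjusted p = 0.413).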
